A study of Brassica napus with 6 samples.

Results

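The degradome library of the short-silique line of rapeseed (Brassica napus), called SS, is described here by the subgenome that each sliced target belongs to. Every complete entry of its deposited table was taken, which gave 577 entries of the 738 complete entries that the degradome tables of the short-silique and long-silique lines hold in all. Each entry pairs a miRNA with an mRNA and a position. Targets whose identifier begins with BnaA, including the unplaced Ann group, were counted as A subgenome, and those that begin with BnaC, including the unplaced Cnn group, as C subgenome. The A subgenome had 270 entries on 202 targets and the C subgenome had 307 entries on 222 targets.

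SS and the long-silique line, LS, were backcross progeny of 1 cross, 8008 × 4942. Pistils and siliques, the young seed pods, were harvested between 0 and 7 days after pollination, with about 12 plants for each stage, and a degradome library was made from about 200 µg of total RNA. Each line had 1 degradome library and 2 small RNA libraries, and both lines were grown in the field with no treatment named. The deposited degradome tables hold no gene names and no read numbers, so the tissue could not be checked against marker genes and the depth of the degradome library is unknown. The SS small RNA libraries had totals of 6046506 and 6403019 reads, and the LS libraries 6409382 and 6739286.

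Rapeseed is an allotetraploid: its A subgenome comes from a relative of Brassica rapa and its C subgenome from a relative of Brassica oleracea, and most genes have a counterpart in each. Plant miRNAs guide an Argonaute protein to mRNAs that pair with them along nearly their whole length, and the mRNA is cut opposite the middle of the miRNA. Degradome sequencing reads the 5′ ends of the cut fragments, so a pile of ends at that place marks a sliced target. In the usual scheme category 0 means that the site holds the highest pile of the transcript and higher categories mean weaker piles, while a lower alignment score means better pairing. The sources used here do not define the deposited categories and scores further.

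The sites shown first are those of the families with the most targets, so that the letters behind the counts can be seen. From each subgenome the site of the entry with the lowest category was taken, then by the smallest p-value and the lowest score. They are written 5′ to 3′ as DNA letters. Capitals in a miRNA mark its seed, bases 2 to 8, and capitals in a site mark the bases that are mismatched with the miRNA, left without a partner or paired as a G:U wobble. miR6030 was added after its values were seen, since it has as many targets as miR166.
ptc-miR156k: tGACAGAAgagagggagcac
site in BnaA02g14580D and in BnaC02g14000D: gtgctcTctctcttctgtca
bra-miR172c-3p: aGAATCTTgatgatgctgcag
site in BnaA01g34730D: ctgcagcatcatcaGgattct
bna-miR172a: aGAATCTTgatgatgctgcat
site in BnaC09g35430D: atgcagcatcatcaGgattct
bra-miR164a: tGGAGAAGcagggcacgtgca
site in BnaA02g09970D and in BnaC01g36350D: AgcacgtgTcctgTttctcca
bna-miR161: tCAATGCActgaaagtgacta
site in BnaA09g46700D: tTgtcactttcagtgcTttga
site in BnaC08g40910D: tCgtcactttcagtgTGttga
ath-miR393a-5p: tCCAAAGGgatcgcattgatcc
site in BnaA02g28290D and in BnaC02g36370D: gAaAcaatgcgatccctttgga
bra-miR5654b: aTAAATCCcaagcatcatcca
site in BnaA09g46840D and in BnaC08g15720D: tCgatgatgcttgggatCtat
bra-miR159a: tTTGGATTgaagggagctcta
site in BnaA03g15690D: tagagcCcccttcaaAccaaa
site in BnaC04g43020D: tagagctTccttcaaAccaaa
bra-miR171e: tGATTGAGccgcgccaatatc
site in BnaA03g21080D and in BnaC03g25140D: gatattggcgcggctcaatca
bra-miR319-3p: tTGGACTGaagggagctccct
site in BnaA01g29050D and in BnaC01g36430D: aggggTccccttcagtccaG
bna-miR166e: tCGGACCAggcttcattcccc
site in BnaA02g06170D: CgggatgaagcctggtccgG
site in BnaC03g66860D: TgggatgaagcctggtccgG
bna-miR6030: tCCACCCAtaccatacagaccc
site in BnaAnng03870D and in BnaC08g21550D: gggtTtgtatggtatgggtgga

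All of these sites had category 0, which the choice by lowest category favours and which is no result. The letters were the same in the A and the C target shown for miR156, miR164, miR393, miR5654, miR171, miR319 and miR6030. The A and C targets were chosen separately, and miR172, miR161, miR159 and miR166 also had A and C targets with the same site. The 32 known miRNA names in the table had 21 different seeds, of which 9 were shared by more than 1 name, always within a family. miR156 was the family with a pair of seeds, since 3 of its names begin 1 base further 5′ than the other 3. In all 577 entries the mRNA paired with miRNA bases 10 and 11, either as a Watson-Crick pair or as a wobble. These bases lie on either side of the expected cut. The rule by which an entry was listed is unknown, so this pairing may have been required beforehand and is no result.

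The A subgenome held 46.8% of the entries (Wilson 95% interval 42.8% to 50.9%) and 47.6% of the targets (42.9% to 52.4%). Such intervals cover counting error only, and entries share miRNAs, cut sites and gene families, so they are narrower than the real uncertainty. Several members of a family often pointed to the same cut, and the entries came down to 215 cut sites in A mRNAs and 244 in C mRNAs. Among known miRNAs, counted once per family and target, 118 of 254 pairs were on A, or 46.5% (40.4% to 52.6%). Since 1 library was made, a difference between the subgenomes has no replicate check and no test was made.

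Every numbered chromosome carried entries, from 11 on A10 to 43 on A09 in the A subgenome and from 19 on C01 to 46 on C03 in the C subgenome. The median was 22.5 entries over the 10 A chromosomes and 25 over the 9 C chromosomes. After A09, A03 had 41 entries, A07 had 31 and A05 had 30. After C03, C07 had 37 entries and C08 had 33. The unplaced identifiers contributed 27 entries to A and 46 to C, the second number being as large as the highest count on a numbered C chromosome. The number of genes per chromosome in the authors' genome build was not used here, so these counts are not set against the size of a chromosome.

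**Figure D1:**
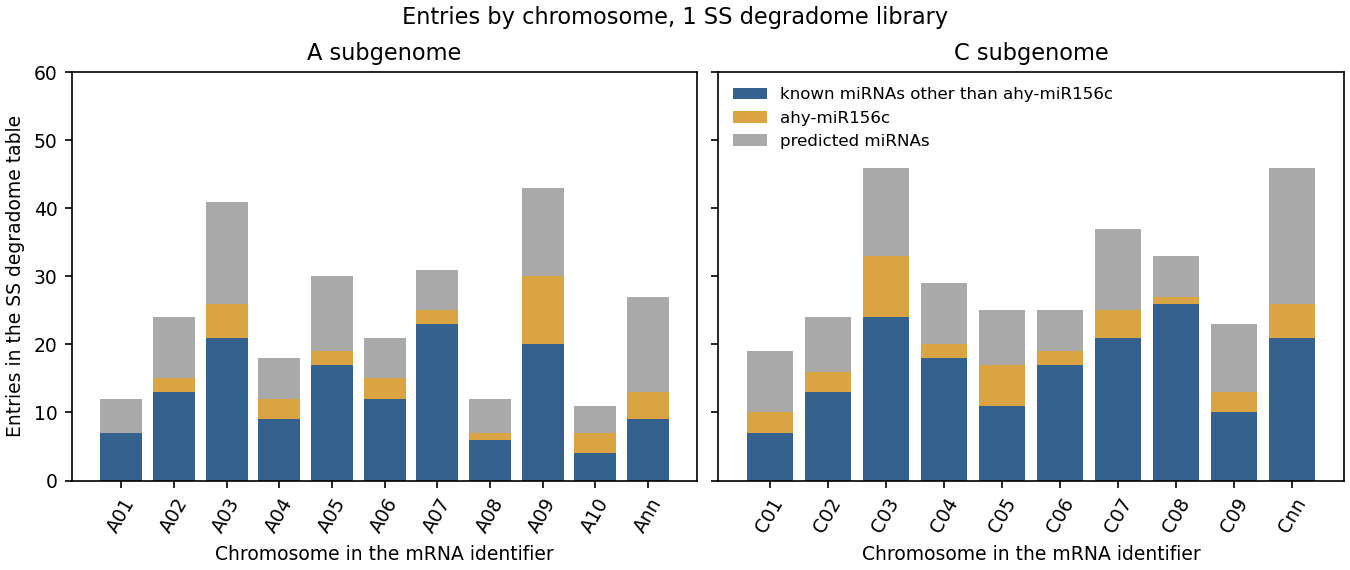
Entries per chromosome in the SS degradome library, A chromosomes first and then C chromosomes, split into known miRNAs without ahy-miR156c, ahy-miR156c and predicted miRNAs (number of entries). A09, with 43 entries, holds 10 of ahy-miR156c, while C08, with 33, holds 1.

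The composition of these counts differed between chromosomes. On C08, 26 of the 33 entries came from known miRNAs other than ahy-miR156c, on 23 targets, and 6 from predicted miRNAs. On A09, 20 of the 43 entries came from such known miRNAs, on 16 targets, and 13 from predicted ones. Category 0 entries made up 33.3% on A08 to 71.0% on A07 among the A chromosomes, and 45.9% on C07 to 66.7% on C08 among the C chromosomes.

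Categories were close in the subgenomes. Category 0 held 50.7% of A entries (44.8% to 56.7%) and 54.7% of C entries (49.1% to 60.2%). Categories 1 to 4 held 32, 67, 26 and 8 entries in A, and 29, 73, 28 and 9 in C. Categories 0 to 2 together took in 87.4% of A entries (82.9% to 90.8%) and 87.9% of C entries (83.8% to 91.1%). The A and C intervals overlap in both cases. How reads that fit both an A and a C mRNA were placed is not given, so A and C entries may rest partly on the same reads.

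The alignment score ran from 0, a perfect pairing, to 4.5 in both subgenomes, with a median of 3 in A (exact 95% interval 3 to 3) and 3 in C (2.5 to 3). The mean was 2.79 ± 1.28 in A (SD over 270 entries) and 2.69 ± 1.31 in C (SD over 307 entries). A score of 0 was given to 8 entries in A and 8 in C. The SD describes the spread between entries of 1 library, not between samples.

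**Figure D2:**
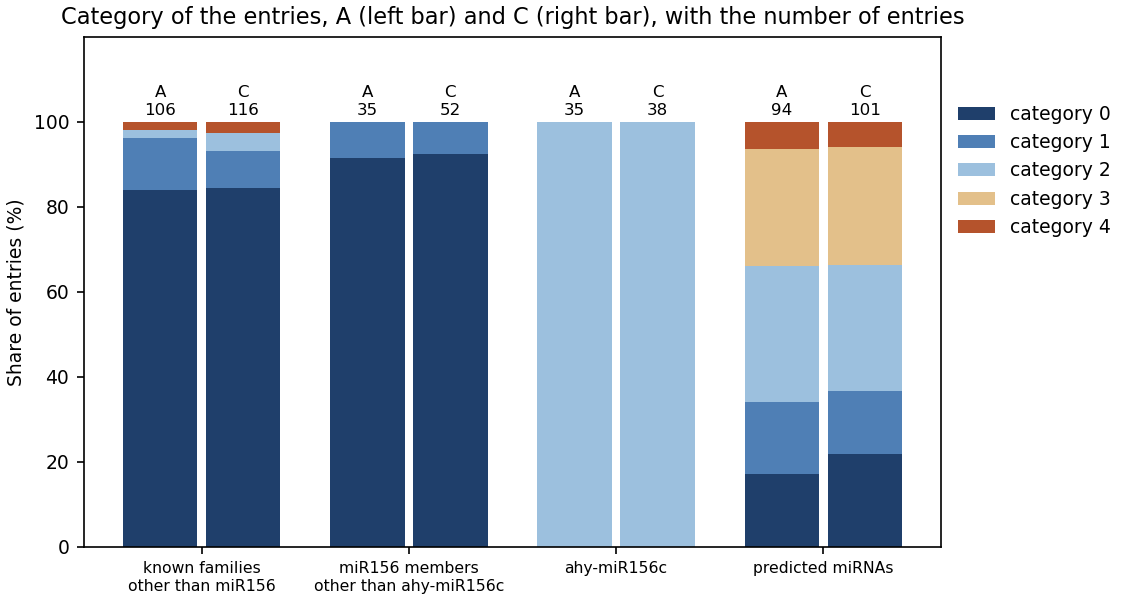
Share of entries in categories 0 to 4 (percent, stacked bars) for known families other than miR156, miR156 members other than ahy-miR156c, ahy-miR156c and predicted miRNAs, with the A bar left of the C bar and the number of entries above each bar. The A and C bars lie close together within each set, while ahy-miR156c stands apart with every entry in category 2.

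Categories differed more between classes of miRNA than between the subgenomes. Among known miRNAs without ahy-miR156c, 121 A entries (85.8% of them, interval 79.1% to 90.6%) and 146 C entries (86.9%, 81.0% to 91.2%) were of category 0. Predicted miRNAs, which the authors named novel_mir with a running number, had 16 A entries (17.0% of them, 10.8% to 25.9%) and 22 C entries (21.8%, 14.8% to 30.8%) in category 0. The median score was 2 in A and 2 in C for the known miRNAs without ahy-miR156c, and 3.5 in A and 3.5 in C for the predicted ones. ahy-miR156c, a peanut-derived name of the miR156 family, had 35 A entries and 38 C entries, all of category 2, with a median score of 4 in each subgenome.

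**Figure D3:**
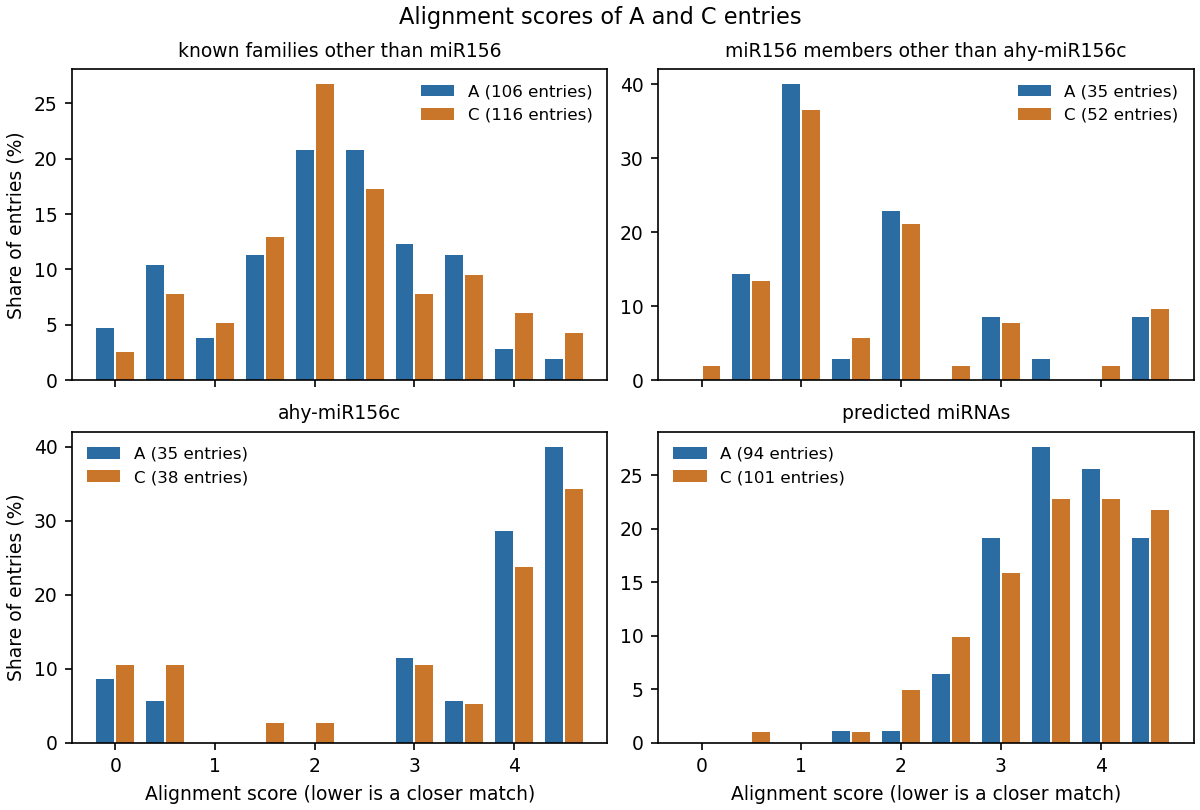
Share of entries (percent) at each alignment score from 0 to 4.5 (lower is better pairing), A left of C, in panels for known families other than miR156, miR156 members other than ahy-miR156c, ahy-miR156c and predicted miRNAs. Known families other than miR156 lie at lower scores (median 2 in A and in C) than predicted ones (median 3.5 in A and in C), and ahy-miR156c entries split into a small group at low scores and a larger one at 3 and above.

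All 20 known families had targets in both subgenomes, though an A and a C target of a family may rest on the same reads. With ahy-miR156c counted in miR156, A had more targets in 7 families, C in 10, and 3 were equal. Of the 14 families with at least 3 targets in each subgenome, the median score was equal in 10, higher in A in 2 (miR156 and miR169) and lower in A in 2 (miR161 and miR400). The score depends on the letters of the miRNA and the site, and many sites had the same letters in both subgenomes, as given below. Equal scores therefore restate the shared letters and are no separate result. In 10 of the 20 families every entry of both subgenomes was of category 0. The A share of targets was 25.0% for miR5654 (8.89% to 53.2%), 22.2% for miR6030 (6.32% to 54.7%) and 66.7% for miR166 (35.4% to 87.9%), and each of these intervals holds the 47.6% of all targets. The roles named below are those known for each family, mostly from Arabidopsis, and the target identifiers themselves carry no gene name here.

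**Figure D4:**
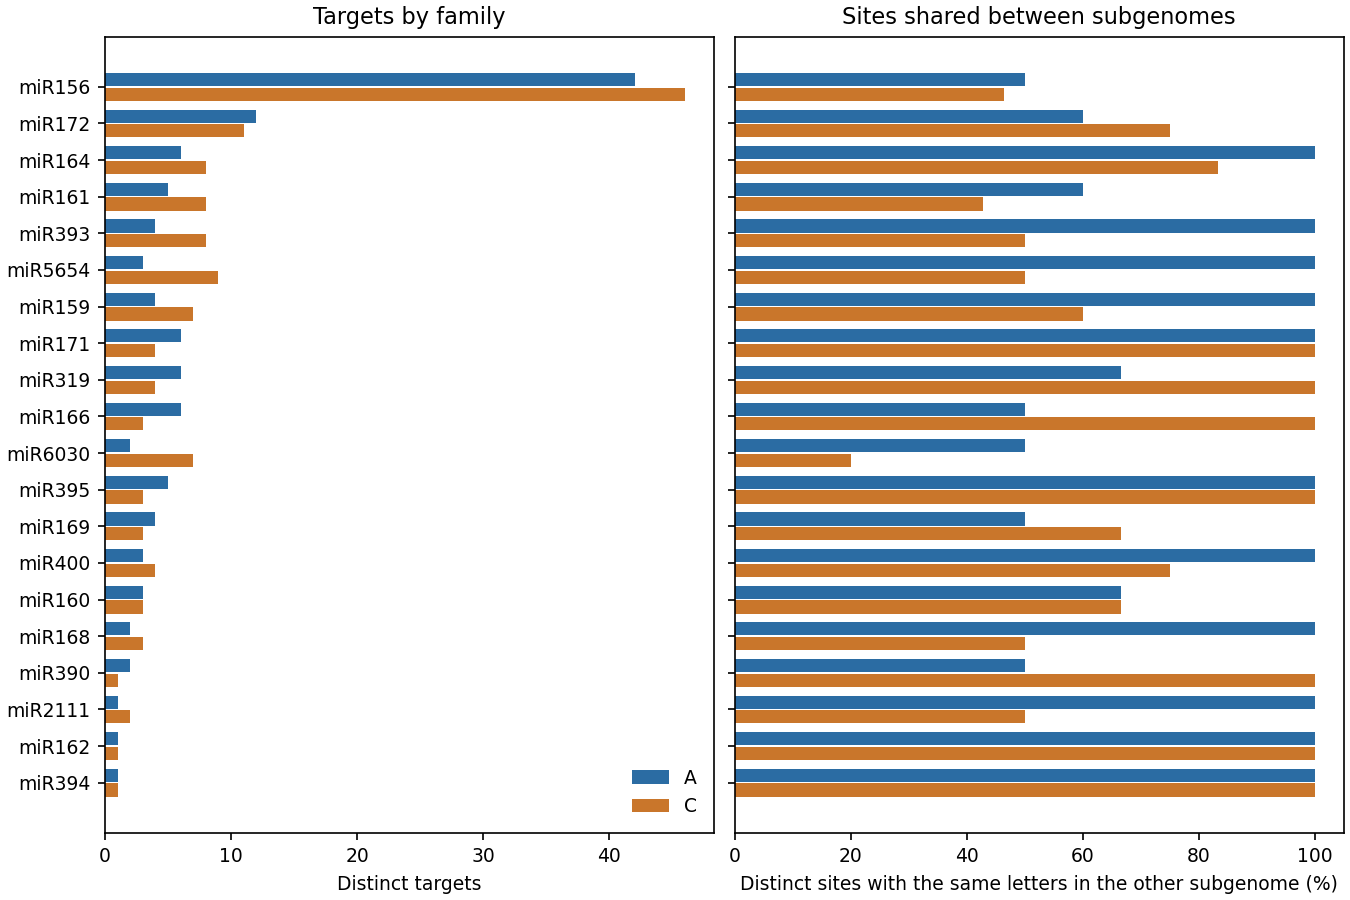
Left, distinct targets of each known miRNA family in the SS degradome library (number of targets, ahy-miR156c included in miR156), and right, the share of each family's distinct sites that have the same letters in the other subgenome (percent), with the A bar above the C bar. miR5654 has 3 A and 9 C targets, miR6030 has 2 A and 7 C targets and miR166 has 6 A and 3 C targets, and the interval of the A share holds the 47.6% of all targets in each of these.

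miR156 targets SPL transcription factors, which drive the change from juvenile to adult growth and act in flower and fruit development. Its members other than ahy-miR156c had 35 entries on 15 A targets and 52 entries on 22 C targets. Of these, 32 A entries and 48 C entries were of category 0 and the remaining 3 and 4 were of category 1. The median score was 1 in A and 1 in C. The site of ptc-miR156k shown above in BnaA02g14580D and BnaC02g14000D lay at position 737 of both mRNAs, with a score of 0.5 in each.

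miR159 and miR319 are related families that target MYB and TCP transcription factors, which act in anther development and in leaf and petal growth. Together they had 10 A targets and 11 C targets, with 9 of 10 A entries and 11 of 11 C entries in category 0. miR159 alone had 4 A and 7 C targets with a median score of 2.5 in each. miR319 had 6 A and 4 C targets with a median score of 3.5 in each, a weaker pairing than that of miR159.

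The auxin-related families were miR160, which targets auxin response factors, miR390, which starts the tasiRNA route to other such factors, and miR393, which targets the TIR1 and AFB auxin receptors. Of 4 families listed for auxin, these 3 had entries and miR167 had none. They had 9 A targets and 12 C targets, all in category 0. miR160 had 3 targets in each subgenome. miR393 had 4 A and 8 C targets, and its sites in BnaA02g28290D and BnaC02g36370D lay at position 1563 in both.

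miR164 targets NAC genes of the CUC type, which set organ boundaries and act in pistil margins. It had 6 A and 8 C targets. Category 0 held 8 of 11 A entries (72.7%) and 13 of 14 C entries (92.9%), with a median score of 2 in each subgenome. The site of bra-miR164a lay at position 816 of BnaA02g09970D and at position 705 of BnaC01g36350D. It was also listed at position 816 of BnaC02g13890D.

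miR172 targets AP2-type genes, which act in floral organ identity and, in Arabidopsis, in fruit growth. Its targets numbered 12 in A and 11 in C, the most after miR156. Its category 0 share was 84.2% in A and 84.2% in C, 16 of 19 entries in each, and its median score was 1.5 in both. The best entries were at position 642 of BnaA01g34730D and at position 1248 of BnaC09g35430D. These are not a pair with the same site, and BnaA10g12950D was listed at position 1248 with the same site as BnaC09g35430D.

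The families that target HD-ZIP III, GRAS and NF-YA transcription factors were wholly in category 0 in both subgenomes. miR166, of the HD-ZIP III genes of organ polarity, had 6 A and 3 C targets, all with a score of 2.5. miR171, of the GRAS genes that keep meristems, had 6 A and 4 C targets with a median score of 0.5 in each. miR169, of the NF-YA subunits, had 4 A and 3 C targets with median scores of 3.25 in A and 3 in C. In each of these 3 families the A targets outnumbered the C targets.

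The F-box families listed were miR393 and miR394, with 5 A and 9 C targets between them, all in category 0. miR394, of the LCR gene in Arabidopsis, had 1 target in each subgenome with a score of 1 in both. The families that feed back on the silencing pathway, miR162 on DCL1 and miR168 on AGO1, had 3 A and 4 C targets, again all in category 0. The miR162 target of each subgenome had a score of 1 and lay at position 2903 of the A mRNA and 2894 of the C mRNA.

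Nutrient families were fewer. miR395, which targets ATP sulfurylases and a sulfate transporter, had 5 A and 3 C targets, with 6 of 10 A entries and 6 of 6 C entries in category 0. miR2111, which targets F-box genes and responds to phosphate, had 1 A and 2 C targets. Its A entries numbered 2, both of category 0, while its 2 C entries were of category 1 and category 4. The listed copper families, the GRF family of miR396 and the MADS family of miR824 had no entry in either subgenome.

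Families aimed at PPR genes, a large class of organelle RNA-binding proteins, had 10 A targets and 20 C targets. Category 0 held 6 of 11 A entries and 11 of 21 C entries. Within them, miR161 had 5 A and 8 C targets, with category 0 in 2 A and 2 C entries and medians of 2.5 in A and 3.5 in C. miR400 had 3 A and 4 C targets with 1 category 0 entry in each subgenome. miR5654 had 3 A and 9 C targets, of which 3 of 3 in A and 8 of 9 in C were of category 0, with a median score of 2 in each. miR6030, for which no role is given here, had 2 A and 7 C targets with a median score of 1 in each.

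Most site sequences of known miRNAs recurred across the subgenomes. A site was counted as shared when the same letters were found for the same family in an A and a C target. Predicted miRNAs have no family, so their sites were matched across all 89 names, a looser rule than matching by name. An unread base, written N, was treated as a letter. Sites were counted by their aligned letters, so the same place aligned with several members of a family can count as several sites. miR169, for example, had 8 A sites on 4 A targets. The intervals treat such sites as separate. Without ahy-miR156c, 50 of 67 A sites (74.6%, 63.1% to 83.5%) were also C sites, and these made up 50 of 80 C sites (62.5%, 51.5% to 72.3%). Such sites lay in 75 of 90 A targets (83.3%) and 81 of 110 C targets (73.6%). For ahy-miR156c 14 of 31 A sites (45.2%) and 14 of 29 C sites (48.3%) were shared, and for predicted miRNAs 37 of 86 (43.0%) in A and 37 of 84 (44.0%) in C.

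**Figure D5:**
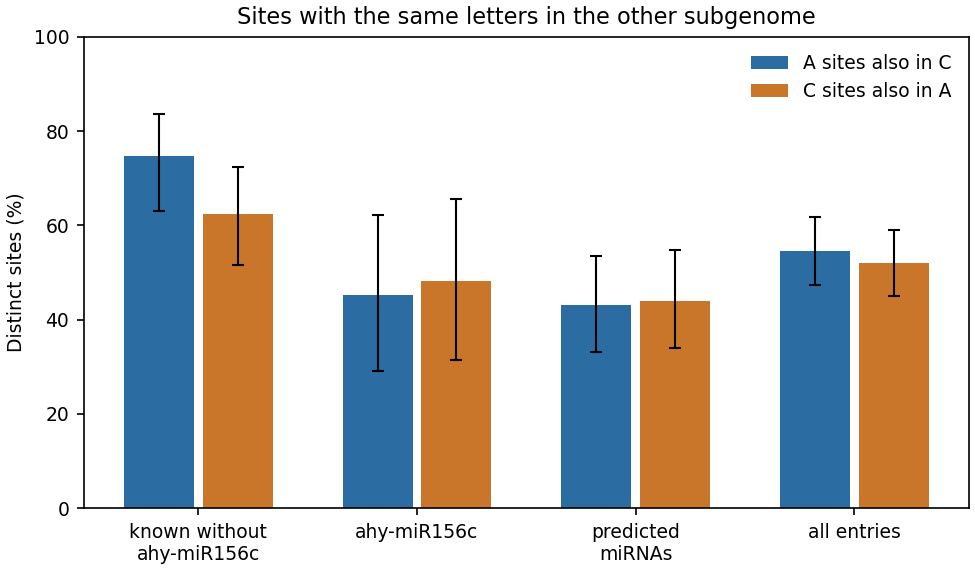
Share of distinct target-site sequences found in both subgenomes (percent, with Wilson 95% intervals that cover counting error only), as a share of A sites and of C sites, for known miRNAs without ahy-miR156c, ahy-miR156c, predicted miRNAs and all entries. Known miRNAs without ahy-miR156c reach 74.6% of A sites and 62.5% of C sites. Both lie above the 43.0% to 48.3% of ahy-miR156c and the predicted miRNAs, though the C interval overlaps theirs. The A interval (63.1% to 83.5%) also overlaps that of the C sites of ahy-miR156c (31.4% to 65.6%). Predicted miRNAs have no family and were matched across all their names.

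Each of the 20 families had at least 1 shared site. In 11 families every A site was also a C site, in 7 every C site was also an A site, and in 4 both held, namely miR162, miR171, miR394 and miR395. miR171 used 2 site sequences, both found in each subgenome, for all of its 6 A and 4 C targets. miR6030 was at the other end, with 1 of 2 A sites and 1 of 5 C sites shared.

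Some unshared sites differed from a site of the other subgenome by 1 base. The substitutions are given with the A base first, its position counted from the 5′ end of the site, and then the C base, and the changed base is in capitals. They are shown for miR166, miR172, miR5654 and miR6030, and in each case the other site of the pair was found in both subgenomes, so the change sets 1 target apart from the rest and does not separate A from C.
miR166, 1 A target against 5 other A and 3 C targets, C1T: Cgggatgaagcctggtccgg in A, Tgggatgaagcctggtccgg in C
miR172, 1 C target against 2 A and 2 other C targets, A5T: ctgcAgcatcatcaggattct in A, ctgcTgcatcatcaggattct in C
miR5654, 1 C target against 2 A and 6 other C targets, T8A: tcgatgaTgcttgggatctat in A, tcgatgaAgcttgggatctat in C
miR6030, 1 A target against 1 other A and 2 C targets, G19T: gggtttgtatggtatgggGgga in A, gggtttgtatggtatgggTgga in C
miR6030, 1 C target against 1 A and 2 other C targets, G1A: Gggtttgtatggtatgggtgga in A, Aggtttgtatggtatgggtgga in C

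The A member of the miR166 pair is the site of BnaA02g06170D shown at the start, and the C member is the site of the other 5 A targets as well. miR160 had G1A, between 1 A target and 1 C target with no other target for either site. miR161 had G13A, between 1 A target and a site of 1 other A and 2 C targets, and miR169 had several. None of the substitutions was tested for an effect on cutting.

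Among known miRNAs without ahy-miR156c, 76 A family-target pairs had a C target with the same site and miRNA, and 81 C pairs had such an A target. Where both members were placed on a chromosome, 31 of 65 A pairs (47.7%) and 34 of 69 C pairs (49.3%) had a counterpart on the chromosome of the same number. The remaining pairs had counterparts on chromosomes of other numbers only. A shared number was not taken as a sign of common origin, nor a different number as a lack of it. The cut lay at the same mRNA position for 30 of 76 A pairs (39.5%) and 29 of 81 C pairs (35.8%). These gave 34 pairs of an A and a C target with the same miRNA, site and position. By chromosome, A02 with C02 gave 5 of them, A03 with C03 gave 4, and A05 with C04 and A09 with C08 gave 3 each.

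The category was the same in 30 of these 34 pairs. It was lower in A in 2 of them. For miR2111, BnaA06g32400D had category 0 and BnaC07g48940D category 4, both at position 268. For miR400, BnaA09g49860D had category 0 and BnaC08g44830D category 1, both at position 407. The category was lower in C in 2 pairs of miR395 at position 102, where BnaA02g00410D and BnaA02g00420D had category 1 and BnaC02g00440D had category 0. A degradome read starts at the cut, so where the A and C mRNAs have the same letters from there on a read cannot tell them apart. How such reads were placed is not given in the sources used here, and the paired entries may rest on the same reads.

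Most C targets of miR5654 and miR6030 were on C08. This chromosome held 8 of the 9 C targets of miR5654 and 5 of the 7 of miR6030. C08 also held 4 of the 8 C targets of miR393, 3 of 8 of miR161 and 1 of 4 of miR400. On the A side, A09 held 3 of 3 targets of miR5654, 4 of 5 of miR161, 3 of 3 of miR400 and 1 of 4 of miR393. Neither of the 2 A targets of miR6030 was on A09, 1 being on A01 and 1 unplaced. For comparison, of all targets of known miRNAs without ahy-miR156c, C08 held 23 of 110 in C and A09 held 16 of 90 in A. The shares of miR400 on C08 and of miR393 on A09 were not far from these. These chromosomes and families were picked after their values were seen.

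Some targets on C08 also lay close together in the numbering of the identifiers, which is taken here to follow the order along the chromosome. Counted in runs of 100 identifiers, a step chosen after the data were seen, known miRNAs without ahy-miR156c had targets in 70 A runs and 76 C runs. In A, 58 runs held 1 target, 10 held 2 and 2 held 3 or more, and in C 65 held 1, 6 held 2 and 5 held 3 or more. The run from BnaC08g40130D to BnaC08g40970D held 5 targets of miR161, miR393 and miR5654. Other runs of C08 held 4 targets each, one from BnaC08g15510D to BnaC08g15770D and one from BnaC08g41200D to BnaC08g41710D. The fullest run on A was on A09, from BnaA09g46030D to BnaA09g46890D, with 4 targets of miR161 and miR5654. The remaining runs of 3 or more held 3 targets each, on A07, C03 and C07. For known miRNAs without ahy-miR156c, C08 also had the most targets of any chromosome, 23, and no allowance was made for this.

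Within the densest run, the neighbouring identifiers BnaC08g40890D, BnaC08g40900D and BnaC08g40910D were targets of miR393, miR5654 and miR161 in that order. BnaA09g47120D and BnaC08g40970D each carried a site of miR161 and one of miR5654. The other target of more than 1 known family was BnaC06g17890D, of miR156 and miR164. Over all miRNAs, a target with a neighbouring identifier also listed made up 6 of 184 placed A targets (3.26%) and 11 of 187 placed C targets (5.88%).

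ahy-miR156c behaved unlike the rest of its family in both subgenomes. Each of its 73 entries had category 2, while the other miR156 names had categories 0 and 1 only. Its deposited p-value was 0.002 in every entry, which does not set it apart, since ath-miR156g had that value throughout as well. It hit 33 A and 36 C targets, of which 6 in A and 12 in C were also targets of another miR156 name. In 6 A and 11 C of the shared targets it was listed 1 base further 3′ than another member. In 1 of these A targets and 1 of these C targets it was also listed 1 base further 5′, in 1 further C target it lay farther away, and in none was it at the same position. The other 27 A and 24 C targets were listed for ahy-miR156c and no other miR156 name, and the entries on them had median scores of 4.25 in A and 4 in C and a range from 3 to 4.5 in each.

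The 1-base step can be seen in BnaA02g14580D on A02 and BnaC02g14000D on C02, which hold the same letters. For these targets ptc-miR156k was listed at position 737 with category 0, and ahy-miR156c at position 738 with category 2. The seed is in capitals in each miRNA, and the ahy name starts 1 base earlier.
ptc-miR156k: tGACAGAAgagagggagcac
its site in both: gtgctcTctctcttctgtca
ahy-miR156c: tTGACAGAagagagagagcac
its site in both: gtgctctctctcttctgtcaG

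The other 21-base members could not be set against the 20-base ones in this way. smo-miR156c and bna-miR156g had cuts in 5 A and 6 C mRNAs, and the 20-base members in 10 A and 16 C mRNAs, with no target in common. For smo-miR156c, BnaA04g24340D and BnaC04g48150D were both listed at position 801, and BnaA05g02680D and BnaC04g02520D both at 804. The examples shown come from different pairs. smo-miR156c was listed at position 801 of BnaA04g24340D and at position 804 of BnaC04g02520D, with category 0 and a score of 1 in each.
smo-miR156c: tTGACAGAagaaagagagcac
its site in both: gtgctctctCtcttctgtcaa

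The CT-rich centre of these sites is also a simple repeat. The letters CTCTCTCT were searched on the strand of the mRNA, in the site of each entry. They were found in 47 of 270 A entries (17.4%) and 67 of 307 C entries (21.8%), or 114 of 577 (19.8%), and the reverse complement AGAGAGAG in none. A cut listed under several names counts once for each name. The repeat was in 16 A and 19 C entries of ahy-miR156c and in 26 A and 38 C entries of the other miR156 names. Of the ahy-miR156c entries on targets that no other member shared, 12 of 28 in A and 11 of 25 in C held them. No other known family had a site with these letters.

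Predicted miRNAs contributed 94 A entries on 89 targets and 101 C entries on 93 targets, under 89 names. Of these names 29 had entries in both subgenomes, 30 in A alone and 30 in C alone, and 56 had a single entry. A position within the first 100 bases of the mRNA was listed for 16 A entries (17.0%) and 27 C entries (26.7%). These include 8 A and 17 C entries whose sites hold unread bases of the reference, described below. The median position was 534 in A and 422 in C.

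Sites with the letter N, an unread base of the reference, were found for predicted miRNAs in 8 A and 17 C entries and for no known miRNA. Each of these sites held 6 to 12 N, and all lay at position 56 or before. Alignment columns with N were counted only in sites of equal length, and all 233 of these were marked as paired in the deposited alignments. novel_mir_638 had N in all 14 of its entries, 4 in A and 10 in C.

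Of the predicted names with more than 1 entry, 4 were wholly in category 0. novel_mir_24 had 1 A and 3 C entries with a median score of 3, and novel_mir_43 had 2 A and 2 C entries with a median score of 3.25. novel_mir_80 had 3 A and 3 C entries and novel_mir_65 had 2 A and 3 C entries, each with a median score of 4, against a median of 2 in A and 2 in C for miR164. Both of these were listed at the position of bra-miR164a and bra-miR164c-5p on 2 A and 3 C targets. These were BnaA02g09970D at 816 and BnaA03g33770D at 696 in A, and BnaC01g36350D at 705, BnaC02g13890D at 816 and BnaC03g38960D at 696 in C.

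The deposited p-values moved in steps of 0.002, with 96 entries at 0, 58 in A and 38 in C. Entries with the same miRNA, alignment and category came in 123 groups, and 22 of these groups had more than 1 p-value. How the authors obtained the values is not given in the sources used here.

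The LS table stops within A09, with its last complete entry on BnaA09g06590D and 1 incomplete entry after it, so the C subgenome is seen in SS alone and 77 A entries of SS lie beyond its range. Up to that target SS had 193 entries. SS and LS shared 102 entries with the same miRNA, target and position, or 52.8% of the SS and 63.4% of the LS entries, and 80 of these had the same category. For known miRNAs SS had 128 entries and LS 95, of which 79 were shared. For ahy-miR156c SS had 20 entries, all of category 2, and LS had 4, all of category 0, with none shared. Each line had 1 library of unknown depth, so no difference between the lines was tested.

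The small RNA libraries give the level of the miRNA itself, for both subgenomes at once. In SS libraries 1 and 2, summed over the counted names of each family, miR156 had 19873 and 19799 RPM (reads scaled to a common library total), miR166 had 9183 and 9018, and miR168 had 4759 and 4663. miR164 had 1060 and 1057, miR172 had 313 and 329, miR5654 had 182 and 201, and miR6030 had 102 and 97.8 RPM. Some families with many targets had low sums over their counted names. miR319, with 10 targets, had 0 reads in each SS library, which allows up to 3 reads per library, and miR395, with 8 targets, had 3 and 5 reads. The names with entries, bra-miR319-3p, bna-miR395f and bra-miR395a-3p, were not counted, so these values belong to other names of the families.

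Within miR156 the name mattered. smo-miR156c had 118238 and 124764 reads in SS libraries 1 and 2 and 11 entries, while ahy-miR156c had 83 and 115 reads and 73 entries. ath-miR156g had 0 and 2 reads and 19 entries, and ath-miR393a-5p had 1 and 0 reads and 12 entries. Of the 32 known names with entries, 10 were among the 69 names counted in the small RNA tables, so for most names the family sum is the nearest measured level. The files do not say how a read that fits several near-identical names was counted.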

How the data were processed

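Degradome libraries of the short-silique (SS) and long-silique (LS) lines, 1 each, and 2 small RNA libraries per line were used. Per the file headers, the deposited degradome tables list miRNA and mRNA names with aligned letters, a score, a category and a p-value, and no read numbers. The deposited score values were used as given. The deposited small RNA count values are whole-number read counts per miRNA with library totals, not normalized, and reads per library total (RPM) were computed from these. No aligner, degradome caller, miRNA database or genome build is named in the sources used here. The authors' count tables of predicted miRNAs were not used, and all columns of per-sample values were mapped to a sample (0 left over).

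Entries were read with Python 3.11.15 and pandas 2.3.3, grouped by identifier prefix and by the number after miR, and counted. Intervals are Wilson 95% (shares) or exact order-statistic 95% (medians), from SciPy 1.17.1. Entries of 1 library are not replicates, so no test was made. Parsing and counting were tested on simulated entries. Alternatives changed the set of entries or the definition of a shared site. Named families had 3 or more SS targets. Per family and subgenome the entry with the lowest category, then smallest p, then lowest score was named, and the sites of the 10 families with the most targets were printed, with miR6030 added after its values were seen. The members, families and lists were chosen with earlier results of these data known. Of the 424 target identifiers 4 matched the RefSeq gene table without regard to case, and these gave no gene name. The table is of another assembly, so neither its coordinates nor its gene numbers were used.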

Additional observations from a re-analysis of the deposited data

How the results depend on the processing

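The A share of entries, of targets and of known family-target pairs stayed between 44.8% and 49.6% under every alternative run, inside the intervals of the reported values. Of 88 values recomputed for 9 results under 12 alternatives, 65 stayed inside the interval and 23 did not. Setting aside sites with N, and known miRNAs without ahy-miR156c, were alternatives chosen after seeing the data. With known miRNAs only, categories 0 to 2 held 98.9% of A and 98.5% of C entries, the median score was 2.5 in A and 2 in C, and 64.9% of A sites were shared. With known miRNAs without ahy-miR156c these values were 98.6% in A and 98.2% in C, medians 2 in A and 2 in C, and 74.6% of A and 62.5% of C sites shared. With predicted miRNAs only they were 66.0% in A and 66.3% in C, medians 3.5 in A and 3.5 in C, and 43.0% of A and 44.0% of C sites. With deposited p-values of 0.01 or less, categories 0 to 2 held 94.9% of A and 92.5% of C entries and the medians were 2.5 in A and 2 in C. Over all miRNAs 54.6% of A and 52.1% of C sites were shared, and with 1 different base allowed 63.4% of A and 63.0% of C sites. These alternatives keep other sets of entries or widen the match by construction. No paired analysis was possible because each line had 1 degradome library and no test was made. Depth is unknown, so a target missing from a subgenome may be one that was not detected, and leaving out a replicate was not possible.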
